A study of Mus musculus with 10 samples.

Results

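The clustered protocadherins are 3 neighbouring groups of genes, alpha, beta and gamma, that encode adhesion proteins of the neuronal surface. They were taken from the deposited expression table as the protein-coding genes whose names begin with Pcdha, with Pcdhb and a number, or with Pcdhg. The rule found 57 of the 52636 genes listed, 14 in the alpha, 22 in the beta and 21 in the gamma cluster. In mm10 the clusters follow one another on the plus strand of chromosome 18, alpha from 36930184 to 37187661, beta from 37264938 to 37524479 and gamma from 37661793 to 37841873. A record named Pcdhgb8, listed as a polymorphic pseudogene, lies in the gamma cluster and is not among the 57. The name Pcdha11 belongs to 2 records, ENSMUSG00000007440 and ENSMUSG00000102206, and the latter is called the second Pcdha11 record here.

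Protocadherins belong to the cadherin superfamily and bind copies of themselves on a facing membrane. In the alpha and gamma clusters each gene has its own promoter and a large variable exon, which encodes the extracellular part, the membrane span and a short stretch of the inner part, and this exon is spliced to constant exons that all genes of the cluster share. Beta genes have no such constant exons. In a single neuron most alpha, beta and gamma genes are switched on at random in small combinations, through CTCF and cohesin, which loop a promoter to a distant enhancer. The resulting surface code lets dendrites and axons recognise and avoid branches of their own cell. The genes at the downstream end of the alpha and gamma clusters, called C-type (Pcdhac1, Pcdhac2, Pcdhgc3, Pcdhgc4 and Pcdhgc5), are more distant in sequence and are not chosen at random in the same way.

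Hippocampal RNA was profiled at an age of 3 months in mice of the C57BL/6 strain. One group of 5 libraries was from mice lacking the thyrotropin receptor (Tshr-/-) and the other group of 5 from wild-type mice. The study asked how the loss of this receptor bears on spatial memory. The labels call the libraries of a genotype biological replicates. They do not state the part of Tshr deleted, whether a library is a single mouse, the sex of the mice or any thyroid hormone given to the mutants. P-values therefore measure the spread between these libraries.

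Tshr was close to the detection limit, with 0, 0, 0, 5 and 2 reads in Tshr-/- libraries 1 to 5 and 9, 12, 7, 2 and 2 in wild-type libraries 1 to 5 (exact permutation p of the FPKM values, 2-sided, 0.0556). Libraries held 23899650 to 33529811 reads, rebuilt from the deposited values. Hippocampal neuron markers were detected in every library, 10 of 10 of them, with a summed level of 254 to 406 FPKM in Tshr-/- and 376 to 532 in wild type. All 10 were lower in Tshr-/-, with a median of -0.44 on the log2 scale, 8 of them at an unadjusted p below 0.05, where 13% of all genes were, and 0 called by limma at an adjusted p below 0.05. Markers of tissue next to the hippocampus lay the other way. All 13 thalamus and habenula markers were higher in Tshr-/-, with a median of 0.61. So were 8 of the 9 choroid plexus markers tested, with a median of 1.20, and 0 were called in both lists. At an unadjusted limma p below 0.05 were 1 of the 13 and 0 of the 9, beside 13% of all genes. The 13 thalamus and habenula markers summed to 187 and 306 FPKM in Tshr-/- libraries 1 and 2, to 108 and 162 in wild-type libraries 2 and 5 and to 22.8 to 59.8 in the other 6, with Gbx2 listed at 0 in some library. The 12 choroid plexus markers summed to 2275 FPKM in Tshr-/- library 4 and to 5.35 to 91.5 elsewhere, with Kcne2 listed at 0 in some library. Beyond a fit with thalamus and choroid plexus levels as covariates and one on the 6 libraries low in thalamus markers, the part of these cell types in the levels that follow was not tested.

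Values are FPKM, fragments normalised to gene length and to a library factor that did not follow the read total. How well that unit describes a member depends on how many of its bases are its own. In the GENCODE vM21 annotation, whose exon lengths equal the deposited lengths for all 57 members, 2860 exonic bases belong to every alpha gene and 2116 to every gamma gene. A median alpha gene had 46.4% of its exonic bases outside the exons of any other gene on either strand, a median gamma gene 54.8% and a median beta gene 100%. Pcdhga10 had 0 such bases among 4732, because other records cover its variable exon too. Pcdha4 had 404 of 5768 (7.004%) and the second Pcdha11 record 1268 of 7535 (16.8%).

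They were the 3 members under 20%, and all had few reads. Pcdhga10 had 0 to 7 reads per library, Pcdha4 3 to 15 and the second Pcdha11 record 1 to 8. Each of the 3 includes the constant exons of its cluster in its deposited length. With 0 reads in 2 of 10 libraries, Pcdhga10 had not been given the reads that fell in the constant exons, and for it little use of the promoter and a lack of own bases to count on cannot be told apart. Gm42416, Gm37013 and Gm37388, records that span the clusters and use their exons, were listed at 0 in all libraries. Alpha and gamma levels are likewise lower than they would be on their own bases, while beta levels are affected little. The cause of the low counts was not tested.

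**Figure D1:**
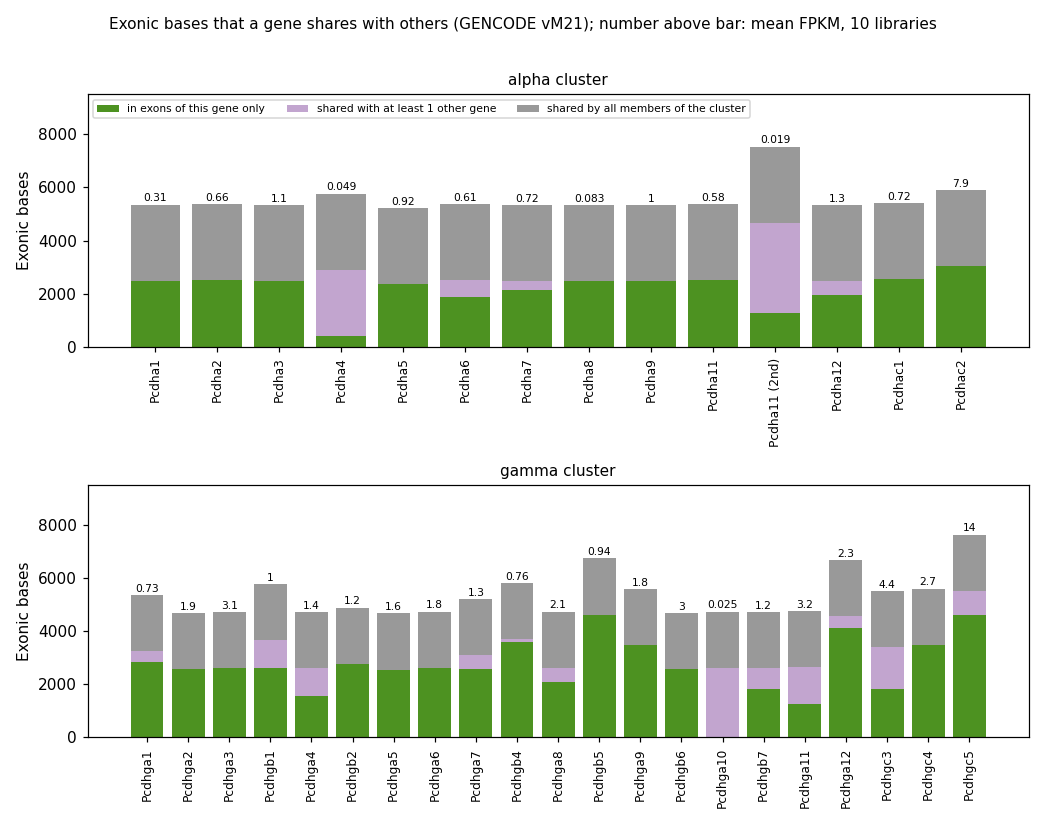
Exonic bases of the alpha and gamma genes in chromosomal order, split into bases of that gene alone, bases shared with at least 1 other gene and bases shared by all members of the cluster; the number above each bar is the mean FPKM over the 10 libraries. Pcdha4, the second Pcdha11 record and Pcdhga10 have the smallest share of own bases (7.004%, 16.8% and 0%) and are also among the lowest levels.

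The highest levels of the alpha and gamma clusters belonged to C-type genes. Pcdhgc5, which binds GABA-A receptors at synapses, was the highest of all 57 members. It stood at 12.6, 9.69, 16.0, 13.0 and 17.6 FPKM in Tshr-/- libraries 1 to 5 and at 17., 12.9, 17.5, 14.6 and 13.5 in wild-type libraries 1 to 5. Tshr-/- library 2 was lowest and library 5 highest of all 10, and the genotypes overlapped. Pcdhac2, needed for the spacing of serotonin axons, led the alpha cluster with 7.68, 6.60, 8.19, 6.93 and 9.43 FPKM in Tshr-/- and 8.30, 7.74, 8.30, 7.99 and 8.11 in wild type. The wild-type libraries lay within a narrow band that the Tshr-/- libraries exceeded on both sides. Pcdhgc3, which restrains Wnt signalling through Axin1 and promotes dendrite branching, had 3.92, 4.69, 4.54, 4.40 and 4.49 FPKM in Tshr-/- and 4.67, 4.32, 4.33, 4.15 and 4.62 in wild type, an even level in all libraries.

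The other C-type genes were lower. Pcdhgc4, on which the survival of many cortical inhibitory neurons depends, had 3.20, 3.79, 2.83, 1.79 and 2.96 FPKM in Tshr-/- and 2.33, 2.59, 2.70, 1.92 and 2.63 in wild type. It was highest in Tshr-/- libraries 2 and 1 and lowest in Tshr-/- library 4. Pcdhac1 had 0.918, 0.483, 0.778, 0.875 and 0.673 FPKM in Tshr-/- and 0.729, 0.681, 0.595, 0.669 and 0.756 in wild type, and Tshr-/- held both the highest and the lowest library. Together the 5 C-type genes made up 27.6% to 32.1% of the summed FPKM of all 57 members, Pcdhac2 alone 47.6% to 51.4% of the alpha sum and Pcdhgc5 21.5% to 32.2% of the gamma sum.

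Levels among the remaining alpha genes did not follow their order on the chromosome. Pcdha12, the last before the C-type genes, was the highest of them with 1.54, 1.15, 1.20, 1.13 and 1.55 FPKM in Tshr-/- and 1.43, 1.26, 1.27, 1.005 and 1.39 in wild type. Pcdha3 and Pcdha9 followed with means of 1.08 and 1.001 FPKM over all libraries, and Pcdha5 with 0.918. Of the 57 members, 6 had a mean under 0.5 FPKM and were not tested, and 4 of those are alpha genes. Besides Pcdha4 and the second Pcdha11 record they are Pcdha1 and Pcdha8, which have 46.5% and 46.4% of their bases to themselves. Pcdha8 had 8 to 17 reads per library and Pcdha1 27 to 61, beside 51 to 241 for the 8 tested alpha genes that are not C-type. Pcdha8 thus had few reads although its own bases were as many as those of its neighbours.

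Beta genes were more even. Of 22, 21 were tested and 17 had a mean of at least 1 FPKM. Pcdhb9 was highest with 4.48, 2.65, 4.502, 4.20 and 4.35 FPKM in Tshr-/- and 3.92, 3.31, 2.94, 3.80 and 4.86 in wild type, and Tshr-/- library 2 and wild-type library 3 were the lowest. Pcdhb17 followed with 3.26, 3.10, 3.25, 3.29 and 3.94 FPKM in Tshr-/- and 3.07, 3.39, 3.47, 3.15 and 4.58 in wild type, where library 5 of each genotype stood above the rest. At the other end Pcdhb1, the first gene of the cluster and wholly on bases of its own, had 0 to 11 reads per library and 0.118, 0.144, 0.0881, 0.159 and 0.112 FPKM in Tshr-/- against 0, 0.0919, 0.118, 0.156 and 0.0931 in wild type. The library listed at 0 is wild-type library 1. The other tested beta genes had means from 0.651 FPKM for Pcdhb21 to 2.55 for Pcdhb7. Pcdhb12 is the one beta gene with few own bases (36.5%). Reads on its shared bases may come from the antisense gene Gm37446 or may have been left out of its count, and neither was tested. Its mean was 0.908 FPKM, and 2.49 when recomputed on own bases alone.

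The gamma genes of random choice fall into the gamma A and gamma B subfamilies. Gamma A genes had a median of mean levels of 1.78 FPKM over 12 genes and gamma B genes 1.09 over 6. Pcdhga11 and Pcdhga3 were the highest of these 18, with means of 3.19 and 3.15 FPKM, and Pcdhgb6 followed with 2.96. Pcdhga10, the lowest member of the gamma cluster, had 0.0504, 0.0359, 0.0562, 0 and 0.0153 FPKM in Tshr-/- and 0.0345, 0.0126, 0, 0.0341 and 0.00849 in wild type, with Tshr-/- library 4 and wild-type library 3 at 0.

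When FPKM was recomputed on own bases alone, the 3 leaders kept their order while others moved. Pcdhgc5 came to 23.9 FPKM, Pcdhac2 to 15.4 and Pcdhgc3 to 13.3. Pcdhga11 reached 12.1, because 1256 of its 4756 bases are its own, and Pcdhga3 5.71. Pcdhb9, without sharing, stayed at 3.90. This scale assigns all reads of a gene to its own bases and so gives an upper value where reads also came from shared bases. The order of levels between clusters depends on this choice, whereas the ratio of genotypes within a gene does not.

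**Figure D2:**
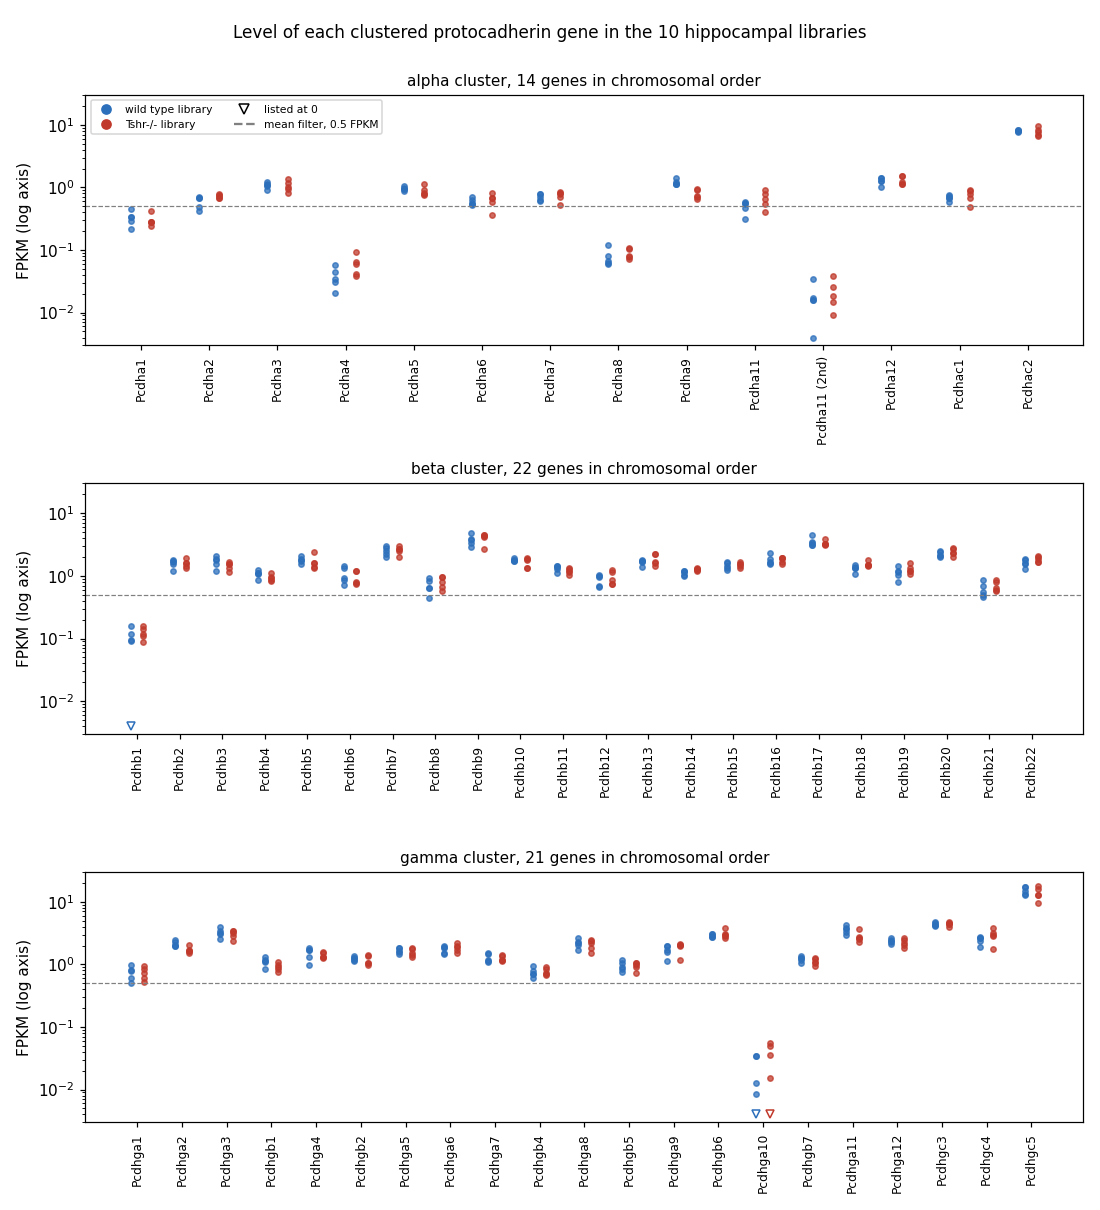
FPKM on a log axis of each member in chromosomal order, 1 point per library, wild type at left and Tshr-/- at right of each position; open triangles mark values listed at 0 and the dashed line the mean of 0.5 FPKM needed for testing. Pcdhac2 and Pcdhgc5 stand above the rest of their clusters, and the points of the genotypes overlap for all members other than Pcdha9.

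Whether loss of Tshr was accompanied by a different level of these genes was asked first for each cluster as a whole. The summed alpha level was 16.1, 13.7, 15.9, 14.3 and 18.8 FPKM in Tshr-/- libraries 1 to 5 and 16.5, 15.6, 16.2, 15.8 and 16.6 in wild-type libraries 1 to 5. The beta sum was 34.6, 32.2, 36.1, 35.8 and 38.9 FPKM in Tshr-/- and 33.3, 34.7, 33.5, 34.1 and 38.1 in wild type. The gamma sum was 47.7, 45.1, 50.9, 47.6 and 56.8 FPKM in Tshr-/- and 55.7, 48.9, 54.5, 50.8 and 51.2 in wild type. In each cluster the genotypes overlapped, and Tshr-/- library 5 was the highest and Tshr-/- library 2 the lowest of the 10 libraries.

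Mean sums were 15.8 ± 1.98 FPKM in Tshr-/- and 16.1 ± 0.411 in wild type (SD, n = 5 each) for alpha, 35.5 ± 2.45 FPKM in Tshr-/- and 34.7 ± 1.99 in wild type for beta and 49.6 ± 4.51 FPKM in Tshr-/- and 52.2 ± 2.83 in wild type for gamma. On the log2 scale Tshr-/- minus wild type came to -0.04 for alpha, 0.03 for beta and -0.08 for gamma, each smaller than the SD between libraries of a genotype, which was 0.13, 0.09 and 0.11 when pooled over the genotypes. Scaled as rebuilt reads per library total instead, the differences were 0.03, 0.12 and -0.01, so that alpha changed sign and beta exceeded its SD. The sums are given without a test. Fewer cells of a type and less RNA per cell cannot be told apart in whole tissue. The share of all 57 members' FPKM held by each cluster was also close, with alpha at 15.6% ± 0.786 in Tshr-/- and 15.7% ± 0.0757 in wild type, beta at 35.3% ± 0.944 and 33.7% ± 1.88, and gamma at 49.2% ± 0.536 and 50.6% ± 1.92.

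**Figure D3:**
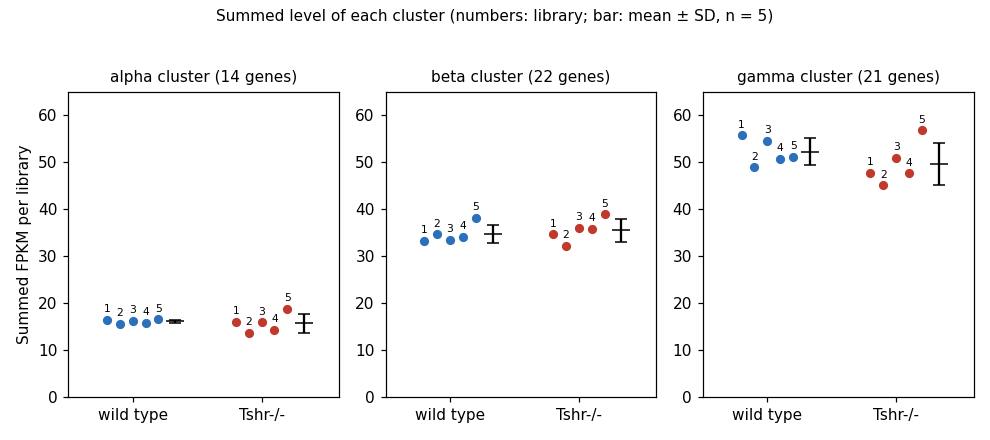
Summed FPKM of the alpha, beta and gamma genes in each library, numbered by replicate, with the mean ± SD of the 5 libraries of a genotype. The genotypes overlap in all 3 clusters, and Tshr-/- libraries 2 and 5 mark the ends of the range, 13.7 and 18.8 FPKM for alpha.

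Gene by gene, limma on log2(FPKM + 0.1) called none of the 51 tested members at an adjusted p below 0.05, with 0 higher and 0 lower. Over all 15471 genes tested the share called was 0.0129%, which is 2 genes. At an unadjusted p below 0.05 there were 3 members, 3 of 51 or 5.88%, beside 13% of all genes. Voom on the rebuilt reads also called 0 members, beside 0.0582% of all genes, with 7 of 51 (13.7%) at an unadjusted p below 0.05, beside 14.5% of all genes. The median difference of the tested members was -0.00 on the log2 scale, with 25 higher and 26 lower in Tshr-/-, and over all genes it was -0.01. That split moved with the scaling, to 17 higher and 34 lower after quantile normalization and to 34 higher and 17 lower with voom on the rebuilt reads, which moved the median of all genes by 0.07. For 43 of 51 members (84.3%) the 95% interval lay within a 1.5-fold change in either direction, and it did so for 77.7% of all genes. All 51 intervals lay within a 2-fold change on this scale. The added 0.1 understates fold changes of low genes, and so narrows their intervals. The median level was 1.27 FPKM over the members and 5.05 over all genes tested, so the 2 shares are not on an equal footing.

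Pcdha9 had the smallest p of the members and was the single one whose genotypes did not overlap. It had 0.893, 0.699, 0.733, 0.657 and 0.960 FPKM in Tshr-/- libraries 1 to 5 and 1.12, 1.14, 1.15, 1.23 and 1.44 in wild-type libraries 1 to 5, with the highest mutant value under the lowest wild-type one. Its log2 difference was -0.57 ± 0.13 (SE; 95% interval -0.86 to -0.28; limma adjusted p = 0.159). Among all genes tested, 2.68% did not overlap between genotypes, 1.76% with Tshr-/- below wild type and 0.911% with it above. In the 24 alternative fits the adjusted p of Pcdha9 ranged from 0.117 to 0.443 and its log2 difference from -0.65 to -0.31, so it passed in none. Pcdha2 and the first Pcdha11 record came next by p in the cluster, and their estimates lay on the other side of zero.

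Pcdha2 had 0.725, 0.684, 0.673, 0.773 and 0.768 FPKM in Tshr-/- and 0.426, 0.688, 0.707, 0.669 and 0.479 in wild type, with a log2 difference of 0.27 ± 0.17 (SE; 95% interval -0.10 to 0.64; limma adjusted p = 0.514). The first Pcdha11 record had 0.553, 0.412, 0.645, 0.780 and 0.923 FPKM in Tshr-/- and 0.311, 0.477, 0.561, 0.579 and 0.547 in wild type, where Tshr-/- library 5 was highest and wild-type library 1 lowest. Its log2 difference was 0.34 ± 0.23 (SE; 95% interval -0.17 to 0.85; limma adjusted p = 0.552). The genotypes overlapped for both genes. Of the 10 alpha genes tested, 6 were higher and 4 lower in Tshr-/-, with a median of 0.04 on the log2 scale, and after quantile normalization 2 were higher and 8 lower. The highest alpha gene, Pcdhac2, differed by -0.07 ± 0.09 (SE; 95% interval -0.26 to 0.12; limma adjusted p = 0.773), and Pcdha12 by 0.04 ± 0.13 (SE; 95% interval -0.25 to 0.33; limma adjusted p = 0.920).

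In the beta cluster 13 of 21 tested genes were higher and 8 lower in Tshr-/-. The median was 0.05 on the log2 scale and the range from -0.18 to 0.21. After quantile normalization 11 were higher and 10 lower, with a median of 0.01. With voom on the rebuilt reads 15 were higher and 6 lower, with a median of 0.12. The smallest p values belonged to Pcdhb18, Pcdhb22 and Pcdhb14. Pcdhb18 had 1.47, 1.49, 1.78, 1.41 and 1.52 FPKM in Tshr-/- and 1.33, 1.37, 1.07, 1.32 and 1.498 in wild type (log2 difference 0.21, limma adjusted p = 0.423). Pcdhb22 had 2.01, 2.05, 1.67, 1.86 and 1.64 FPKM in Tshr-/- and 1.27, 1.78, 1.52, 1.59 and 1.84 in wild type (0.20, 0.465). Pcdhb14 had 1.33, 1.18, 1.27, 1.23 and 1.296 FPKM in Tshr-/- and 1.17, 1.05, 1.19, 1.19 and 1.01 in wild type (0.16, 0.481). All 3 pairs of groups overlapped. The leading beta genes Pcdhb9 and Pcdhb17 differed by 0.09 and -0.06 on the log2 scale, with 95% intervals of -0.27 to 0.46 and -0.30 to 0.19.

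In the gamma cluster 6 of 20 tested genes were higher and 14 lower in Tshr-/-, with a median of -0.06 on the log2 scale. Among gamma A genes 9 of 11 were lower, with a median of -0.07, and among gamma B genes 3 of 6, with a median of -0.03. With voom on the rebuilt reads 11 of the 20 gamma genes were higher, with a median of 0.01, and 6 of the 11 gamma A genes, so the direction depended on the scaling. Pcdhga2 and Pcdhga11 had an unadjusted p below 0.05, and their levels were lower in Tshr-/-, the direction of 8.38% of all genes at that threshold, beside 4.65% in the other. Pcdhga2 had 2.05, 1.67, 1.55, 1.62 and 1.69 FPKM in Tshr-/- and 2.30, 1.99, 2.01, 2.48 and 1.98 in wild type, and Tshr-/- library 1 alone lay within the wild-type range. Its log2 difference was -0.31 ± 0.10 (SE; 95% interval -0.53 to -0.10; limma adjusted p = 0.240). Pcdhga11 had 2.53, 2.30, 2.76, 2.63 and 3.698 FPKM in Tshr-/- and 4.31, 2.95, 3.62, 3.80 and 3.28 in wild type, and again a single Tshr-/- library, number 5, reached into the wild-type range. Its log2 difference was -0.36 ± 0.13 (SE; 95% interval -0.65 to -0.07; limma adjusted p = 0.298). Pcdhgb1 had 0.838, 0.923, 0.743, 0.996 and 1.11 FPKM in Tshr-/- and 1.3, 1.13, 1.10, 0.858 and 1.17 in wild type (log2 difference -0.25, limma adjusted p = 0.477).

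The C-type genes of the gamma cluster differed in how closely they were bounded. Pcdhgc3 had a log2 difference of -0.00 ± 0.06 (SE; 95% interval -0.14 to 0.13; limma adjusted p = 0.984), the smallest standard error of the 51 members. For Pcdhgc4 it was 0.22 ± 0.17 (SE; 95% interval -0.16 to 0.61; limma adjusted p = 0.614) and for Pcdhgc5 -0.15 ± 0.15 (SE; 95% interval -0.49 to 0.18; limma adjusted p = 0.699). In the 4 libraries highest in thalamic markers Pcdhgc5 lay between 9.69 and 13.5 FPKM and in the other 6 between 13.0 and 17.6. Pcdhgc4 lay between 2.59 and 3.79 in those 4 and between 1.79 and 2.96 in the other 6. The ranges overlapped for both genes. With thalamus and choroid plexus levels as covariates the log2 difference of Pcdhgc5 was 0.03 and that of Pcdhgc4 0.28, with limma adjusted p values of 0.945 and 0.337. Pcdhgc4 came to 0.38 without Tshr-/- library 4 and to 0.12 without Tshr-/- library 2, with limma adjusted p values of 0.231 and 0.856. The part of neighbouring tissue in these levels was not tested further.

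**Figure D4:**
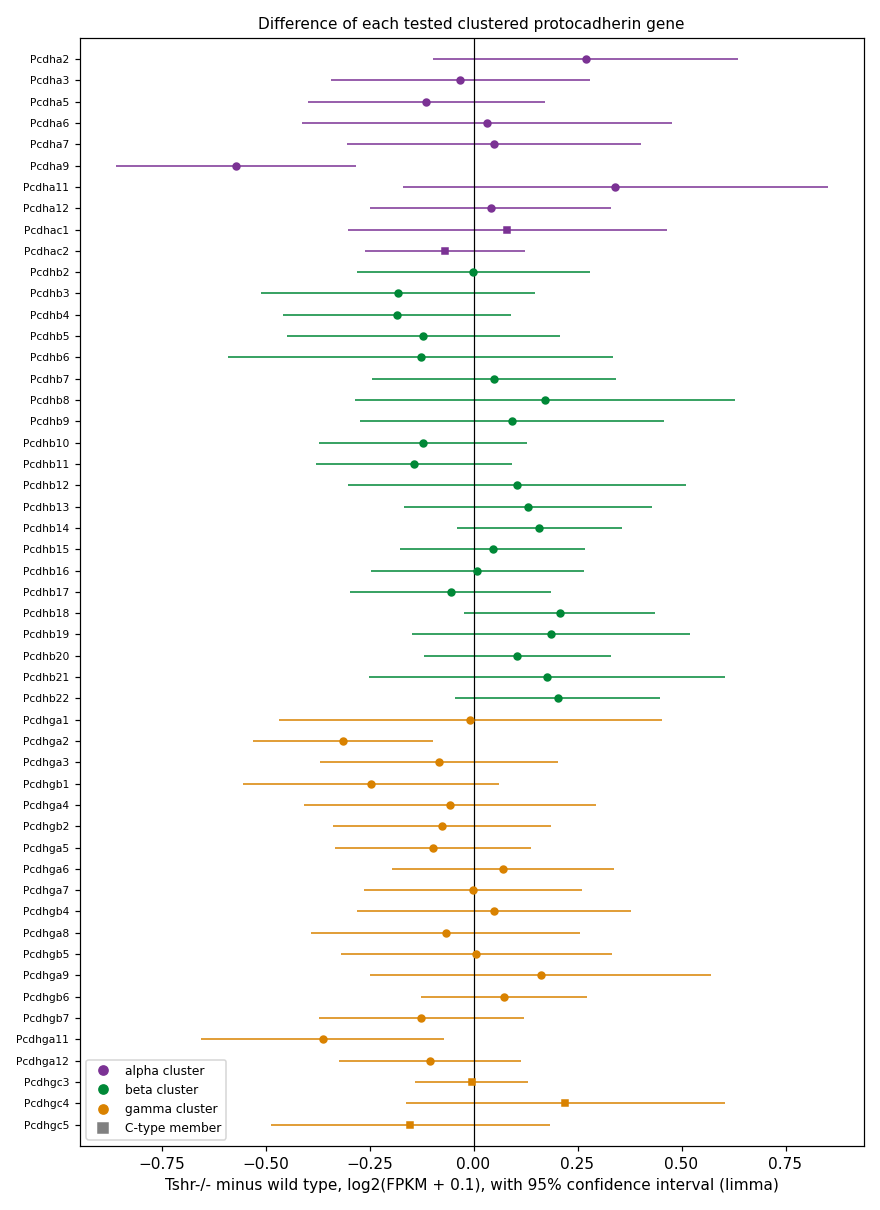
Difference between the genotypes of the 51 tested members in chromosomal order, with 95% confidence intervals from limma; squares are C-type genes. The estimates run from -0.57 for Pcdha9 to 0.34 for the first Pcdha11 record, and 3 intervals, those of Pcdha9, Pcdhga2 and Pcdhga11, leave out zero.

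How far the libraries of a genotype varied was set against the error of counting reads. The coefficient of variation within a genotype had a median of 14.9% over the tested members, where counting alone would give 7.61%, and in 42 of 51 members it was more than 1.5 times the counting error. Pcdhgc5 exceeded it most, with 18.2% beside 1.84%, followed by Pcdhgc4 with 21.1% beside 5.07% and Pcdhac2 with 10.2% beside 2.81%. Pcdhgc3, with 5.84% beside 3.89%, and Pcdhb14, with 6.16% beside 5.96%, were the steadiest. This ratio rises with the number of reads, and Pcdhgc5 had the most. The coefficient of variation itself was higher in Pcdha11 (27.7%), Pcdhb6 (27.1%) and Pcdhga1 (24.9%). Tshr-/- library 5 held the highest value of 16 of the 57 members and Tshr-/- library 2 the lowest value of 12. The same shares over all genes were not computed, so these counts cannot be read as particular to the members. Interneuron markers were lower in Tshr-/- for 7 of 8, with a median of -0.17 on the log2 scale. Of these 8, 0 were called and 3 had an unadjusted p below 0.05, where 13% of all genes did. The interneuron markers were all detected in every library and summed to 381 to 636 FPKM in Tshr-/- and 555 to 633 in wild type. Their part in the protocadherin levels was not tested.

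**Figure D5:**
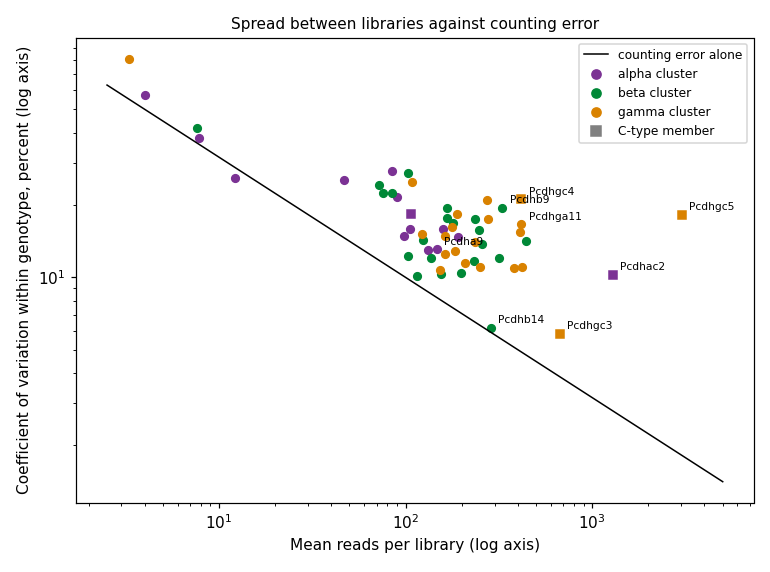
Coefficient of variation within a genotype against mean reads per library for all 57 members, both on log axes, with the line that counting error alone would give. Pcdhgc5 (18.2%) lies farthest above the line, Pcdhb14 (6.16%) close to it, and the members with fewest reads lie on or near it.

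Genes that act with the clustered protocadherins gave 0 calls as well. The list of promoter choice and chromatin regulators, with CTCF, cohesin subunits, DNA methylation enzymes and heterochromatin factors, had 26 of 27 genes tested. Of these 13 were higher and 13 lower in Tshr-/-, 0 were called and 0 had an unadjusted p below 0.05, with a median of 0.00 on the log2 scale. Ctcf, the insulator protein that marks active protocadherin promoters, had 13.5 ± 0.623 FPKM in Tshr-/- and 14.3 ± 0.620 in wild type (log2 difference -0.08, limma adjusted p = 0.531). Tet1, which oxidises methylated DNA, had 0.893 ± 0.0661 FPKM in Tshr-/- and 0.730 ± 0.0835 in wild type, and Dnmt3a, a DNA methyltransferase, 5.47 ± 0.229 FPKM in Tshr-/- and 5.07 ± 0.410 in wild type. Trim28, a corepressor, had 29.8 ± 2.07 FPKM in Tshr-/- and 32.3 ± 2.27 in wild type. The limma adjusted p of these 3 lay from 0.394 to 0.477.

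Partners and effectors of the proteins were lower in Tshr-/- for 21 of 25 genes and higher for 4, with a median of -0.09 on the log2 scale. There were 0 calls and 5 genes at an unadjusted p below 0.05, where 13% of all genes were. Over all genes 8244 of 15471 were lower. Within each genotype the summed level of the list was lowest in the libraries rich in thalamic markers, at 1136 and 1048 FPKM in Tshr-/- libraries 1 and 2 and at 1213 and 1223 in wild-type libraries 2 and 5, and the hippocampal neuron markers were lower in Tshr-/- as well. The part of tissue makeup in this list was not tested. Cyfip2, a subunit of the WAVE complex that drives actin branching, had 128 ± 8.41 FPKM in Tshr-/- and 143 ± 6.72 in wild type. Axin1, the Wnt scaffold that Pcdhgc3 binds, had 7.36 ± 0.300 FPKM in Tshr-/- and 8.11 ± 0.548 in wild type, and the GTPase Rac1 46.9 ± 1.27 FPKM in Tshr-/- and 49.97 ± 1.09 in wild type. Rac1 was the 1 gene of the list whose genotypes did not overlap, with at most 48.7 FPKM in Tshr-/- and at least 49.1 in wild type. Of all genes tested, 2.68% did not overlap. Ptk2b, a focal adhesion kinase that the constant part of alpha and gamma proteins inhibits, had 117 ± 23.8 FPKM in Tshr-/- and 144 ± 16.9 in wild type, with its lowest values in Tshr-/- libraries 2 and 1 (91.1 and 98.2). Their limma adjusted p values were 0.291, 0.349, 0.356 and 0.363.

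The 10 nonclustered protocadherins, which are single genes elsewhere in the genome, differed in both directions, 5 higher and 5 lower in Tshr-/-, with a median of 0.04. Of these 10, 0 were called and 5 had an unadjusted p below 0.05, where 13% of all genes did. Pcdh19, an X-linked member known from female-limited epilepsy, had 8.43, 7.59, 10.2, 7.75 and 7.89 FPKM in Tshr-/- and 11.3, 10.03, 11.7, 10.9 and 9.72 in wild type (log2 difference -0.36, limma adjusted p = 0.176), so that 1 Tshr-/- library, number 3, reached the wild-type range. Pcdh1 had 55.4 ± 10.03 FPKM in Tshr-/- and 69.0 ± 6.98 in wild type, Pcdh10 10.4 ± 1.96 FPKM in Tshr-/- and 8.46 ± 0.398 in wild type and Pcdh11x 0.839 ± 0.277 FPKM in Tshr-/- and 0.461 ± 0.149 in wild type, with limma adjusted p values of 0.298, 0.351 and 0.288. In Pcdh1 the lowest values, 47.0 and 44.6 FPKM, belonged to Tshr-/- libraries 1 and 2, which were highest in thalamic markers, and Pcdh11x was highest in the same libraries. The part of thalamic tissue in these values was not tested.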

How the data were processed

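Hippocampal RNA was sequenced in 5 Tshr-/- and 5 wild-type libraries. Reads were aligned with HISAT2 2.0.5 and counted with featureCounts 1.5.0-p3 on mm10, per the submitters' processing notes. Whether strand was used, how reads shared by several genes were treated and the annotation release are not given in the sources used here. Libraries were made with a NEBNext Ultra RNA kit, per the labels' protocols, which does not mark strand, so antisense reads cannot be told apart. The authors deposited FPKM values. Multiplied by gene length, 100% of the values above 0 in a library came out as integer multiples of the same unit (tolerance 0.01 reads), and these integers were taken as reads. Median-ratio factors of the deposited FPKM did not differ between libraries (highest over lowest 1). The deposited values were thus already on a median-ratio scale and not on that of read totals. Tshr-/- libraries 2 and 5 held 27822135 and 27667576 reads, yet a single read on a gene of 1 kb gave 0.0340 and 0.0361 FPKM. Voom and rebuilt reads per library total used the totals instead.

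Genes with a mean of at least 0.5 FPKM (15471) were fitted on log2(FPKM + 0.1) with limma 3.58.1 in R 4.3.3, using moderated variances that follow the mean (eBayes, trend). P-values were adjusted by Benjamini-Hochberg over all of them and called below 0.05. Fold changes on this scale understate those of low genes. In simulated reads, run on 15295 genes, a 1.5-fold change was called for 20 of 50 genes and a 2-fold change for 39 of 49, and 7 of all 126 calls were wrong. These rates do not give the power for the members. The changed genes were drawn from all genes, and so many calls loosen the Benjamini-Hochberg limit, whereas the real fit made 2. The median level was 1.27 FPKM over the members and 5.05 over all genes tested, and the median SE 0.132 and 0.100.

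Own exon bases were taken from GENCODE vM21. Members, gene lists and tests were chosen with earlier results of these data known. Named in full are the C-type genes and, in each cluster, the 2 highest, the lowest and the 3 with the smallest p, plus up to 4 genes with the smallest p in each related list; other genes named were chosen after their values were seen. Pairing was checked over all tested genes: same-numbered libraries of the genotypes correlated from -0.0651 to 0.296 in their deviations from the genotype means, so the numbers were not treated as pairs. Alternatives were other pseudocounts, filters, scalings and variance settings, limma voom on the rebuilt reads, a replicate block, marker covariates and each library left out. Chosen after seeing the data were the 6 libraries lowest in thalamus markers and levels on own bases. Promoter and protein sequences of these genes were not used here.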

Additional observations from a re-analysis of the deposited data

Results flagged for a closer look

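In 10 of 134 groups of 5 libraries the highest or lowest library stood farther from the others than Dixon's limit for 5 samples (0.71 of the range) allows. Chance flags about 1 in 20 independent groups. These groups share libraries, and the sums are built from the same members, so the count cannot be judged against that rate. Tshr-/- library 2 was low for Pcdhb9, at 2.65 FPKM where the other 4 lay between 4.20 and 4.502, and for Pcdhga9, at 1.19 where they lay between 1.96 and 2.13. Tshr-/- library 5 was high for Pcdhb5, at 2.41 against 1.35 to 1.61, and for Pcdhb17, at 3.94 against 3.10 to 3.29. Wild-type library 5 was high for Pcdhb17 too, at 4.58 against 3.07 to 3.47, and for the summed beta level, at 38.1 against 33.3 to 34.7. Tshr-/- library 4 was high for Pcdha1, at 0.426 against 0.241 to 0.280. Tshr-/- library 3 was high for Pcdhb18, at 1.78 against 1.41 to 1.52, and Tshr-/- library 1 for Pcdhga2, at 2.05 against 1.55 to 1.69. Wild-type library 3 was low for Pcdhb13, at 1.37 against 1.67 to 1.76.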

How the results depend on the processing

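No clustered protocadherin was called in any of the 24 alternatives, and the smallest adjusted p among them ranged from 0.117 to 0.385. Of these, median-ratio scaling had the same factor in every library, so it repeated the main fit and adds nothing to it. Over all genes the number called, 2 in limma, was 14 with a pseudocount of 0.01, 4 without a filter, 13 with a mean of at least 1 FPKM, 4 after quantile normalization, 1 without a variance trend, 13 with robust moderation, 17 over protein-coding genes and 9 with voom (6 higher and 3 lower), and 0 to 9 with 1 library left out. Voom gave 7 of 51 members (13.7%) an unadjusted p below 0.05, beside 14.5% of all genes. The replicate numbers did not pair the libraries: with them as a replicate block, 3 genes and 0 members were called, the smallest member adjusted p was 0.192, and libraries 2 and 4 alone correlated best with their own number. In the 6 libraries lowest in thalamus markers the beta sum differed by 0.14 on the log2 scale.

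Small log2 differences changed sign. After quantile normalization Pcdha12 came to -0.024 and Pcdhac1 to -0.0082. With marker covariates Pcdhac2 came to 0.026 and Pcdhgc5 to 0.028. With voom Pcdhac2 came to 0.00084, Pcdhb17 to 0.022 and Pcdhgc3 to 0.064. In the 6 libraries Pcdhb17 came to 0.11 and Pcdhgc3 to 0.031. With 1 library left out, Pcdha12 ranged from -0.034 to 0.089, Pcdhb17 from -0.11 to 0.040 and Pcdhgc3 from -0.027 to 0.036. The alpha sum, at -0.04, came to 0.028 as rebuilt reads per library total, 0.020 as a mean over members, and 0.0075 both without Tshr-/- library 2 and in the 6 libraries. The beta sum, at 0.03, came to 0.12 as rebuilt reads and to -0.0017 without Tshr-/- library 5. The cause was not tested. Depth limits members with few reads, such as Pcdha8 and Pcdhb1, and Pcdhga10 has no own bases.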

Other observations

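Pcdhgb8, the gamma record that the biotype leaves out of the 57, had 0.377, 1.20, 0.494, 0.477 and 0.407 FPKM in Tshr-/- libraries 1 to 5 and 0.601, 1.55, 1.44, 0.646 and 0.313 in wild-type libraries 1 to 5. Tshr-/- library 2 and wild-type libraries 2 and 3 stood above the other 7, and the genotypes overlapped. Pcdhb9 had its lowest values in the same 3 libraries, at 2.65, 3.31 and 2.94 FPKM, and lay between 3.80 and 4.86 in the rest. Both genes were chosen after their values were seen, and no test was made of the pattern.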
